A study of Mus musculus with 12 samples.

Results

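The genes of the proteasome were followed across 12 mouse arrays. They were taken as all spots with a single gene symbol that starts with Psma, Psmb, Psmc, Psmd, Psme, Psmf or Psmg and a digit. That rule found 51 spots of 50 genes among 22138 spots that are no controls, on which 15081 genes are named. Of these 50 genes, 37 had a value on all 12 arrays and could be tested, among 10762 features tested. The 13 others are Psma1, Psma3, Psma7, Psma8, Psmb1, Psmb3, Psmb4, Psmb9, Psmc1, Psmc4, Psmd3, Psme3 and Psmg2. The rule also takes in Psmc3ip and Psme3ip1, which encode interacting proteins and no subunit, and Psme2b, a copy of Psme2. Psme2 itself was not analysed here.

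The proteasome degrades proteins that carry ubiquitin chains. Its core particle is a barrel of stacked rings, in which alpha subunits form the outer rings and gate the entry, and beta subunits form the inner rings that hold the proteolytic sites. The regulatory particle caps the barrel: its base, with a ring of ATPases, unfolds the substrate, and its lid removes the ubiquitin. In cells of the immune system 3 proteolytic beta subunits can be replaced by Psmb8, Psmb9 and Psmb10, which favours peptides for antigen presentation, and the activators Psme1 and Psme2 open the core without a need for ATP. The transcription factor Nfe2l1 raises many subunit genes together when proteasome activity falls.

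The series carries the title of the nuclear growth hormone receptor, and growth hormone signals through JAK2 and STAT5. Total RNA of each sample was labelled with Cy3 and hybridised with a commercial embryonic RNA labelled with Cy5. Arrays fall into 4 groups by receptor form and GH number: WT 0GH and WT 1GH on one side, and NLS 0GH and NLS 1GH on the other. Each group has 3 arrays, lettered b, c and d. WT is the usual short form for wild type and NLS for a nuclear localization signal. Every title also carries a 10 after the receptor form, with no meaning given. The labels list human growth hormone at 100 ng/ml for all samples, 0GH included, and call the experiment a time course, so 0 and 1 are used here as numbers and not as untreated and treated. The labels name neither the cells, the clone nor the vector behind a receptor form, and do not say whether the letters are separate cultures. If they are not, the p-values measure only the spread between these samples. Of the marker lists of blood cells, 4 of 8 B lymphoid genes were tested, with a list mean between -0.13 and 2.23 on the arrays. Over all arrays the list means were 0.85 for B lymphoid, 0.72 for myeloid, 0.01 for T lymphoid and -0.41 for erythroid genes. Within the B lymphoid list, Cd79a had a mean of 2.66 and Igll1 one of -0.18. No cell type is read from these ratios.

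All values are log2 ratios of sample to embryonic reference after the median of the tested features was subtracted from each array. A value of 0 is therefore the ratio of the median feature, and a value compares a gene with its own level in the embryo and not with another gene. The numerator of the ratio is not named in the labels. The sign was set by embryo-tissue genes, of which 38 of 41 lay above the array median as deposited, and the opposite reading would turn every sign. The spots measured per array numbered 15939 to 19700 of 23040, and the number of arrays limits the precision. In bulk RNA, more cells of a type and more RNA per cell cannot be told apart.

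The stretches upstream of 5 genes are shown because the subunit genes are compared below as a set and because growth hormone acts through STAT5. RefSeq promoter windows on build GRCm38.p6 were found for 42 of the 50 genes, in 45 windows, and the 250 bases before each start were searched on both strands. The letters TGACNNNGC are the core that Nfe2l1 and its relatives bind, CCAAT is the box bound by NF-Y, and TTCNNNGAA is the core that STAT5 binds. The windows lie at chr14:54617996-54618245 on the minus strand for Psmb5, and on the plus strand at chr11:70525107-70525356 for Psmb6, chr11:107479278-107479527 for Psmd12, chr17:34197945-34198194 for Psmb8 and chr1:86064369-86064618 for Psmd1. Capitals mark TGACNNNGC in Psmb5, Psmb6 and, on the opposite strand, in Psmd12. They mark TTCNNNGAA in Psmb8.
Psmb5: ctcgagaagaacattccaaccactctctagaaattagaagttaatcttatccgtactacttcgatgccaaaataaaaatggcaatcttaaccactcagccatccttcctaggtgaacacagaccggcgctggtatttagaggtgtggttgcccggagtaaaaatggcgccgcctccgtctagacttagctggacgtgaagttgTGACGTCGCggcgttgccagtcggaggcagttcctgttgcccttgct
Psmb6: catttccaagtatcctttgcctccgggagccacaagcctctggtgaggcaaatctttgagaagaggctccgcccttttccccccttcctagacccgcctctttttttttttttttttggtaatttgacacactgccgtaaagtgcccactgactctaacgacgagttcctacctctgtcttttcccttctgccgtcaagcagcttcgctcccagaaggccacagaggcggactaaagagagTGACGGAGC
Psmd12: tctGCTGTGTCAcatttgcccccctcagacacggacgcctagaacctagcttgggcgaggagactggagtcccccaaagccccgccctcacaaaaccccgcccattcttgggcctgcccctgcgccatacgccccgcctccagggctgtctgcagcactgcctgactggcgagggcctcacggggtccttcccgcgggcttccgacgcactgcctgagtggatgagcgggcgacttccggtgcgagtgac
Psmb8: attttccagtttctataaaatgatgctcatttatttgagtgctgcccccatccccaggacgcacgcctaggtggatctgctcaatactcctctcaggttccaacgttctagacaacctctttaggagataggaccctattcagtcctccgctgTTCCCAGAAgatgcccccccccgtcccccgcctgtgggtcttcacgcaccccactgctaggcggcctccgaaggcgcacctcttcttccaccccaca
Psmd1: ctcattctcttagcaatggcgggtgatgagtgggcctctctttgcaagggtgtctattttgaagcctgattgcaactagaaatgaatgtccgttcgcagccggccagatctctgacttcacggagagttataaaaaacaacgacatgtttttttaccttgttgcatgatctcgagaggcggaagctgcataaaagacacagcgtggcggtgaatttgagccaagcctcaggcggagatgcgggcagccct
The match in Psmb6 begins 9 bases before the start, that in Psmb5 47 bases before it, that in Psmb8 97 and that in Psmd12 247. Psmd1 held no TGACNNNGC in these letters.

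The shares of windows with each motif are set beside those of all windows. TGACNNNGC was found in 5 of 45 windows, 11.1%, against 10.2% of all 32851 windows of that length, and the genes were Psmb5, Psmb6, Psmc6, Psmd9 and Psmd12. CCAAT was found in 16 windows, 35.6%, against 33.8% of all. TTCNNNGAA was found in the windows of Psmb8 and Psmg1, 4.44%, against 7.02% of all. A match describes the letters and is no shown binding site.

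Against the embryonic reference, the proteasome genes lay mostly above the median feature. Of the 37, 27 had a mean over 12 arrays above 0, with a median of 0.59, while 51.4% of all features tested lay above 0, with a median of 0.04. Psma4, Psma6, Psmb8, Psmc3 and Psme1, listed after their values were seen, were above 0 on all 12 arrays, as were 9.71% of features. No member was below 0 on all 12 arrays, against 11.1% of features. The lowest mean was -1.01 for Psmd2, the large base subunit that receives substrates, and the highest was 1.72 for Psmb8.

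**Figure D1:**
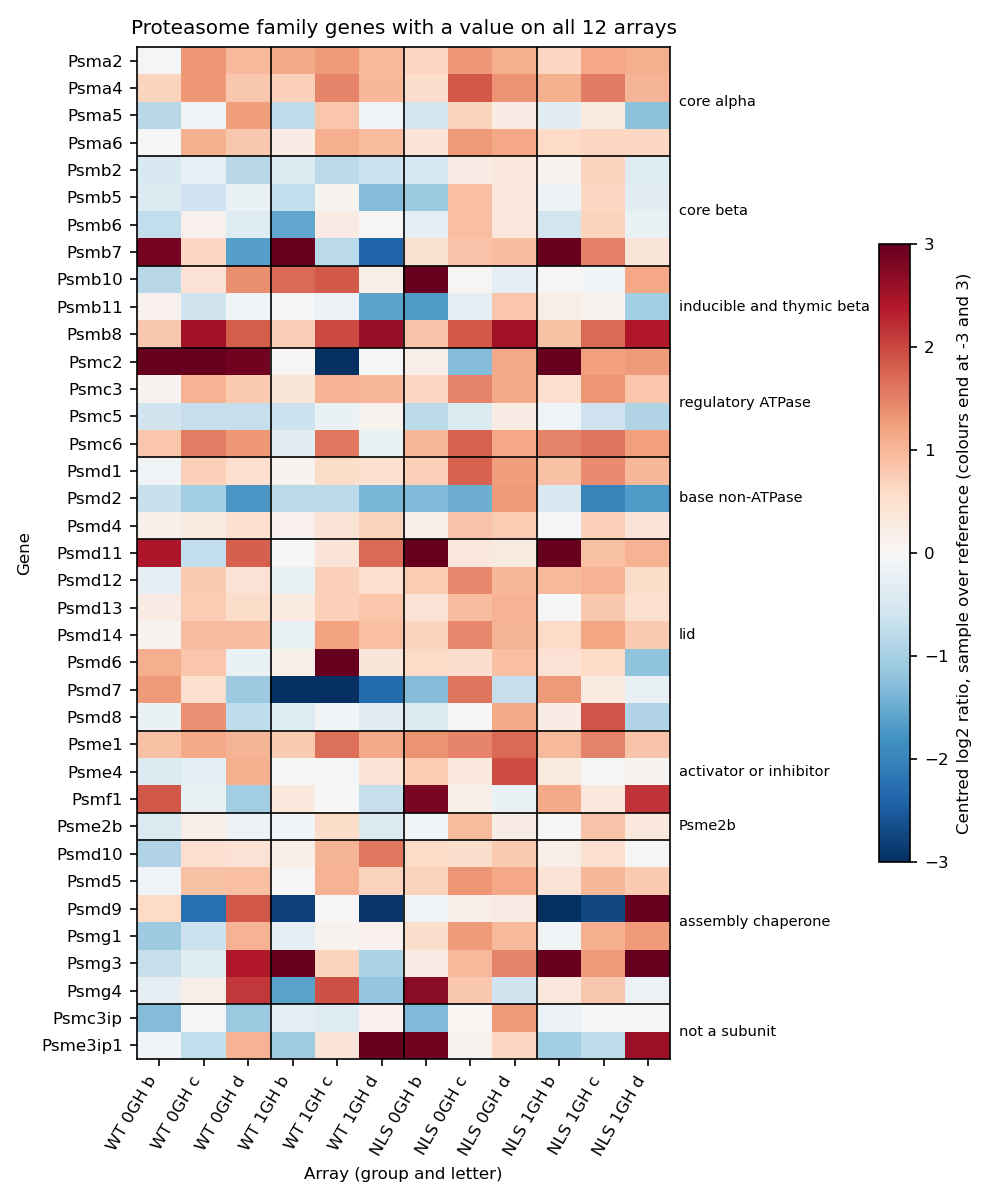
Centred log2 ratio of sample to embryonic reference for each of the 37 tested proteasome genes (rows, by class). Columns are the 12 arrays, by group and letter, and colours end at -3 and 3. The 13 genes without a full set of values are not shown. Psmd7 is low on the 3 WT 1GH arrays, and Psmc2 is high on the WT 0GH arrays.

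Most proteasome genes were also measured with less scatter than the average feature. The SD within groups (pooled over the 4 groups) had a median of 0.69 over the 37, against 1.0 over all features. It was lowest for Psme1 at 0.30, highest for Psmb7 at 2.46, and under 0.5 for 13 members, while 20.2% of features were that tight. Beside the tight spots stand single members with excursions over several log2 units, so that the median of the family and the extremes describe different genes.

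The alpha subunits of the outer core rings were tested for Psma2, Psma4, Psma5 and Psma6. Their median per group was 0.69 (SD 0.63 over 3 arrays) in WT 0GH, 0.88 (SD 0.37) in WT 1GH, 0.96 (SD 0.43) in NLS 0GH and 0.78 (SD 0.15) in NLS 1GH. The beta subunits of the inner rings were tested for Psmb2, Psmb5, Psmb6 and Psmb7, and lay lower against the embryo. Their group medians were -0.37 (SD 0.29), -0.64 (SD 0.31), 0.28 (SD 0.64) and 0.13 (SD 0.48) in the same order. Every group median of the beta subunits was thus below that of the alpha subunits, on ratios and not on transcript amounts, and this difference was not tested.

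The regulatory particle, with 14 tested genes, had group medians of 0.46 (SD 0.32) in WT 0GH, 0.27 (SD 0.32) in WT 1GH, 0.81 (SD 0.26) in NLS 0GH and 0.67 (SD 0.25) in NLS 1GH. The 8 constitutive core genes had 0.15 (SD 0.33), 0.13 (SD 0.36), 0.54 (SD 0.42) and 0.37 (SD 0.29). Both particles therefore ran in the same order over the groups, with NLS 0GH at the top and WT 1GH at the bottom. The steps between neighbouring groups were smaller than the SD of their arrays. The 7 lid genes had medians of 0.49, 0.34, 0.84 and 0.65, which is again that order.

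Psmb8, Psmb9 and Psmb10 are the interferon-inducible beta subunits, and Psmb11 is the form of thymic epithelium. Psmb8, which replaces Psmb5, read 0.80, 2.52 and 1.81 in WT 0GH (letters b, c and d) and 0.74, 1.97 and 2.62 in WT 1GH. It read 0.86, 1.85 and 2.53 in NLS 0GH and 0.87, 1.70 and 2.40 in NLS 1GH. All 12 values lay above the median feature, the b arrays were the lowest of every group, and the groups overlapped fully. Psmb8 has a second spot, with values on 11 arrays between 1.14 and 8.48, which lay above the complete spot on 8 of the 11 arrays. Psmb10, which replaces Psmb7, had group means of 0.33 (SD 1.12), 1.23 (SD 0.93), 0.98 (SD 1.91) and 0.36 (SD 0.68) in the same order of groups. Psmb9, which replaces Psmb6, had values on 8 arrays, from -0.68 to 1.58.

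Of their constitutive counterparts, Psmb5 with the chymotrypsin-like site had group means of -0.42 (SD 0.22), -0.65 (SD 0.70), 0.04 (SD 1.05) and 0.05 (SD 0.51). Psmb6 with the caspase-like site had means of -0.33 (SD 0.44), -0.42 (SD 0.99), 0.32 (SD 0.58) and -0.03 (SD 0.63). Psmb7 with the trypsin-like site had the largest SD within groups of the tested members, and ran from -2.41 in WT 1GH d to 4.82 in NLS 1GH b. Over all arrays Psmc2 ran further, from -5.21 to 4.69, as did Psmd9, from -4.53 to 2.99. For Psmb7 the SD within groups was larger than the differences between its group means, and reached 3.69 in WT 1GH.

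Psme1, a subunit of the activator that interferon induces, was the tightest member. It read 0.88, 1.13 and 1.02 in WT 0GH, 0.78, 1.66 and 1.13 in WT 1GH, 1.34, 1.46 and 1.69 in NLS 0GH and 0.98, 1.50 and 0.87 in NLS 1GH. The 3 NLS 0GH arrays lay above the 3 WT 0GH arrays, while the 1GH groups overlapped. Psme2b, the copy of its partner, had group means of -0.14, 0.01, 0.36 and 0.40, with SDs from 0.31 to 0.52, and its spot may also bind Psme2 transcripts. Psme4, an activator of the core with a role in germ cells, and Psmf1, an inhibitor of the core, had means over the arrays of 0.34 and 0.56.

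Some genes without a full set of values stood far from the family, and are named after their values were seen. Psmc4, an ATPase of the base, was below 0 on all 8 arrays with a value, between -7.99 and -1.75. Psmb3 and Psma3, subunits of the core, had values on 2 arrays each, with means of -4.01 and -3.77. Psma8, the alpha subunit of male germ cells, lay above 0 on all 11 arrays with a value, with a mean of 2.65. These 4 genes rest on incomplete spots and entered no test of the 37.

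At 0GH, most proteasome genes lay somewhat higher in NLS than in WT arrays, but none passed the test. Of the 37, 33 had a difference above 0 and the median difference was 0.39, while 49.7% of all features lay above 0 with a median of 0.00. In limma's test with Benjamini-Hochberg adjustment 0 members passed, as did 0% of features, and the smallest adjusted p of a member was 0.951. An unadjusted p under 0.05 was found for 1 member, Psmc2, on the lower side, against 4.61% of features. With the letter as a block there were 4, Psmc2 lower and Psmd1, Psmd12 and Psmg1 higher, against 6.97% of features. The 13 members with an SD under 0.5 were all above 0, with a median of 0.44. The median without the array WT 0GH b was 0.22, and it was 0.55 without NLS 0GH b.

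By role at 0GH, the core had 9 of 11 genes above 0 with a median of 0.32, and the regulatory particle 12 of 14 with a median of 0.30. The chaperones that assemble the particles had 6 of 6 above 0, with a median of 0.47. The largest differences belonged to Psmg1, an assembly chaperone of the alpha ring, at 1.16 (SE 0.59), to Psme3ip1 at 1.15, and to Psmd1, the large base subunit that binds ubiquitin receptors, at 0.87 (SE 0.40). The lowest were Psmc2, an ATPase of the base, at -3.70 (SE 1.41), Psmd7, a lid subunit that pairs with the deubiquitinase Psmd14, at -0.36 (SE 0.96), and the thymic Psmb11 at -0.20. The groups did not overlap for 3 members on the higher side, Psmd1, Psme1 and Psmd10, against 4.66% of features, and for Psmc2 on the lower side, against 4.48%. For Psmd1 and Psmd10 the nearest arrays nearly tied. Psmd1 read 0.7219 in NLS 0GH b and 0.7209 in WT 0GH c, and Psmd10 read 0.5202 in NLS 0GH c and 0.5155 in WT 0GH c.

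At 1GH, the same comparison gave a smaller and less even difference. Of the 37, 24 lay above 0 with a median of 0.22, against 46.8% of features and a median of -0.05. Again 0 members and 0% of features passed in limma after Benjamini-Hochberg adjustment, with 0.999 as the smallest adjusted p. Psmd7 at 4.17 (SE 0.96) and Psmc2 at 4.0 (SE 1.41) had an unadjusted p under 0.05, which 3.49% of features had. With the letter as a block, Psmd1 and Psmc6 joined them on the higher side, against 5.25% of features. Without the array WT 1GH c the difference of Psmc2 was 2.26. Without the array WT 1GH b the family median was -0.07, so its direction rests on that array. The 13 tight members had 7 above 0 with a median of 0.08.

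Psmb7 followed at 1.76 (SE 1.81), and Psmd6 of the lid at -1.43, Psme3ip1 at -0.88 and Psmb10 at -0.87 were the lowest. The 4 beta subunits were all above 0 with a median of 0.73, while 1 of 4 alpha subunits was, with a median of -0.15. The NLS arrays lay above the WT arrays without overlap for 5 members, Psmd7, Psmc2, Psmd1, Psmb2 and Psmf1, against 4.48% of features. For Psmf1 the nearest arrays nearly tied, at 0.3151 in NLS 1GH c and 0.3094 in WT 1GH b. No member lay lower without overlap, against 4.24%.

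Averaged over both GH numbers, which uses the same arrays again, 32 of the 37 differences lay above 0, with a median of 0.30, against 47.7% of features and a median of -0.03. The count of passing members was 0, as for 0% of features, by limma with Benjamini-Hochberg adjustment, and the smallest adjusted p was 0.844, for Psmd1. An unadjusted p under 0.05 was found for 4 members, Psmd1, Psmd7, Psmg1 and Psmb2, all on the higher side, against 5.27% of features. The letter as a block added Psmd12, against 7.94% of features. In every one of 6 pairs of one letter and GH number NLS lay above WT for Psmd1, Psmd12, Psmf1 and Psme2b, against 3.49% of features. No member was lower in all 6, against 2.48%. Without WT 1GH b the family median was 0.19.

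**Figure D2:**
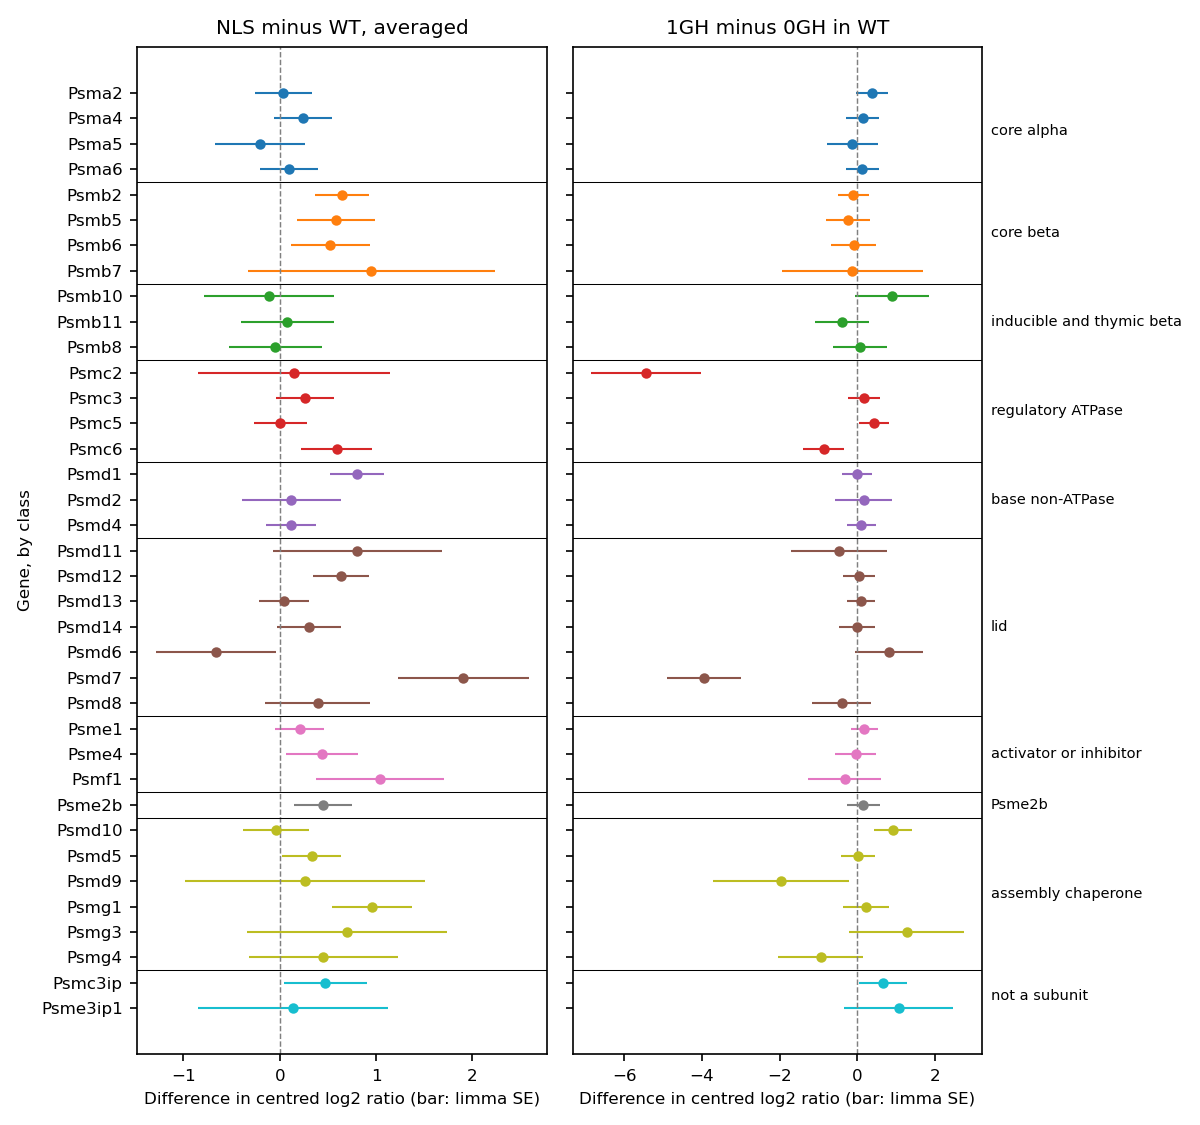
Difference in centred log2 ratio (horizontal) for the 37 tested proteasome genes by class, as NLS minus WT averaged over both GH numbers (left) and as 1GH minus 0GH in WT (right), with bars for the limma SE. On the left 32 of 37 points lie above 0, and on the right Psmc2 at -5.44 and Psmd7 at -3.95 lie far from the others.

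Psmd1, named here after its values were seen, read -0.10, 0.72 and 0.51 in WT 0GH and 0.07, 0.55 and 0.48 in WT 1GH. It read 0.72, 1.77 and 1.26 in NLS 0GH and 0.88, 1.42 and 0.99 in NLS 1GH. The 6 NLS values exceeded the 6 WT values, but the lowest NLS array (0GH b) and the highest WT array (0GH c) differed by less than the rounding. Across features 0.567% were separated in that way upward and 0.158% downward, and Psmd1 was the only member among them. The averaged difference was 0.80 (SE 0.28), with an unadjusted p of 0.017 and an adjusted p of 0.844 in limma.

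Psmd12, a scaffold of the lid that is likewise named after its values were seen, read -0.29, 0.78 and 0.43 in WT 0GH and -0.19, 0.72 and 0.51 in WT 1GH. It read 0.77, 1.45 and 1.01 in NLS 0GH and 0.96, 1.04 and 0.55 in NLS 1GH. Within each letter NLS was the higher at both GH numbers, yet the groups overlapped, since the letters differ. The averaged difference was 0.63 (SE 0.29).

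Among the core subunits, Psmb2, a beta subunit without a proteolytic site and also named with its values known, differed by 0.64 (SE 0.28) on average and was higher in 5 of 6 pairs. Psmb5 differed by 0.58 (SE 0.40), Psmb6 by 0.52 (SE 0.41) and Psmb7 by 0.95 (SE 1.28), each higher in 5 of 6 pairs. The share of all features at 5 of 6 pairs was not counted, so these counts have no background beside them. Of their inducible counterparts, Psmb8 differed by -0.05 (SE 0.48) and Psmb10 by -0.11 (SE 0.67). With features of at least 2 values in each group, which adds its second spot, Psmb8 differed by 0.66. That spot read 8.48 in NLS 1GH b and had no value in WT 1GH b. The alpha subunits had 3 of 4 above 0 with a median of 0.07, and the 14 regulatory genes 13 above 0 with a median of 0.28.

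The highest averaged differences were those of Psmd7 at 1.90 (SE 0.68), Psmf1 at 1.04 (SE 0.66) and Psmg1 at 0.96 (SE 0.42). The lowest were Psmd6 at -0.66 (SE 0.62), Psma5 at -0.21 (SE 0.47) and Psmb10. Psmg1 read -1.08, -0.65 and 1.04 in WT 0GH, -0.26, 0.11 and 0.12 in WT 1GH, 0.52, 1.27 and 0.98 in NLS 0GH and -0.12, 1.10 and 1.27 in NLS 1GH. Its lowest values were thus 2 WT 0GH arrays, and the third array of that group lay among the NLS arrays. Among the incomplete genes Psme3, an activator of the nuclear proteasome, differed by 2.32 (SE 0.94) with an adjusted p of 0.836 in limma with at least 2 values in each group.

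Per array, the median over the 37 was -0.09, 0.44 and 0.78 in WT 0GH and -0.01, 0.55 and 0.13 in WT 1GH. It was 0.52, 0.86 and 0.98 in NLS 0GH and 0.33, 0.80 and 0.55 in NLS 1GH. The group means were 0.38 (SD 0.44), 0.22 (SD 0.29), 0.79 (SD 0.24) and 0.56 (SD 0.24). NLS lay above WT in 6 of 6 pairs of one letter, by 0.20 to 0.61, although the groups overlapped. The letters differed as well, with medians of 0.25 for b, 0.57 for c and 0.63 for d.

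**Figure D3:**
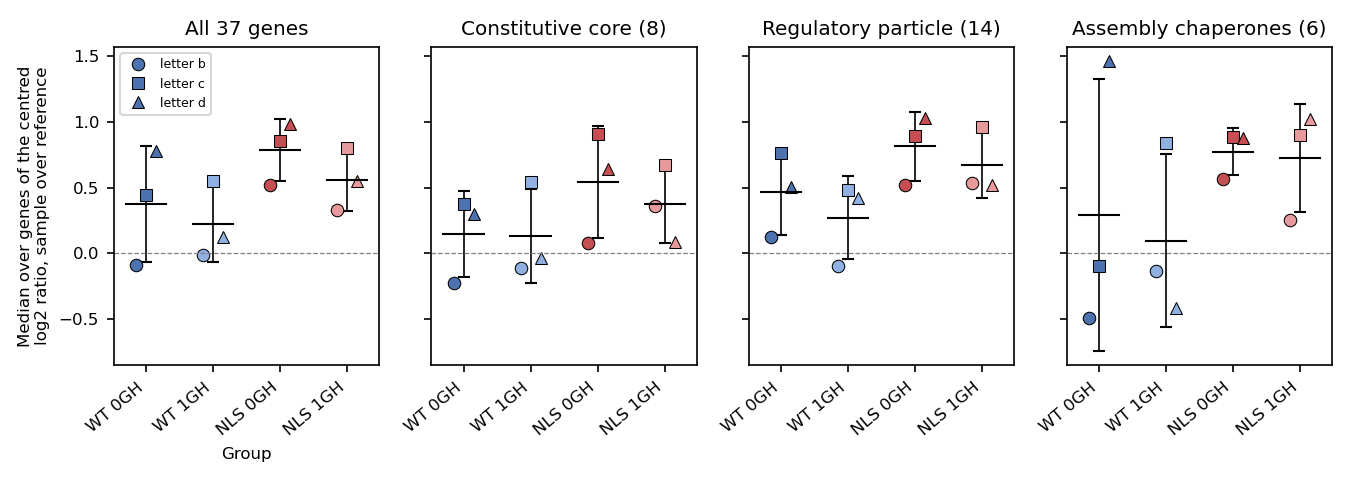
Median centred log2 ratio on each array, with a panel each for the 37 tested proteasome genes, 8 constitutive core, 14 regulatory particle and 6 assembly chaperone genes. Symbols stand for the letters b, c and d, with the mean of each group as a bar and the SD over 3 arrays. Over the 37, NLS 0GH has the highest group mean at 0.79 and WT 1GH the lowest at 0.22, and the arrays of the groups overlap.

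Other spots also differed in level between the receptor forms. The Gapdh control spots had a median per array of 0.05, 0.65 and 0.38 in WT 0GH against 0.44, 1.20 and 1.60 in NLS 0GH. At 1GH they had -0.21, 0.29 and 0.97 in WT against -0.36, 1.03 and 0.79 in NLS, so they were higher in NLS in every letter at 0GH and in letter c alone at 1GH. Of the erythroid markers 2 of 6 were tested, Gata1 and Hba-a1, with a mean from -0.02 to 0.47 on WT 1GH arrays and from -0.08 to 0.43 on WT 0GH arrays. On NLS arrays this mean lay from -1.22 to -0.94 at 0GH and from -1.31 to -0.62 at 1GH, without overlap with WT. Of single features, 0.158% were separated in that direction, which is no background for a mean of 2 genes. The means of the B lymphoid, myeloid and T lymphoid lists overlapped between the forms. Gata1 and Hba-a1, each taken alone, overlapped as well. Gata1 read 0.99 in WT 1GH b and 2.44 in NLS 1GH d, and Hba-a1 read -2.82 in WT 1GH c and -1.99 in NLS 0GH b. The part of the Gapdh or the erythroid values in the proteasome differences was not tested.

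Between GH numbers in WT, the family median lay near that of all features while single members differed by several log2 units. Of the 37, 20 lay above 0 with a median of 0.04, against 52.5% of features and a median of 0.03. By limma with Benjamini-Hochberg adjustment 0 members passed, as did 0% of features, and the smallest adjusted p was 1.0. The members with an unadjusted p under 0.05 were Psmc2 at -5.44 (SE 1.41) and Psmd7 at -3.95 (SE 0.96), against 2.69% of features. Both were lower at 1GH without overlap, against 2.7% of features, and no member was higher without overlap, against 2.95%. The family median was -0.10 without WT 0GH b and 0.24 without WT 1GH b. On arrays that were not centred it was -0.23, with 8 of 37 above 0, as the median of all features was -0.23 too.

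Next lowest was Psmd9, an assembly chaperone of the base, at -1.97, and the highest were Psmg3 at 1.26, Psme3ip1 at 1.06 and Psmd10, another base chaperone, at 0.91. The beta subunits had 0 of 4 above 0 with a median of -0.12, and the alpha subunits 3 of 4 with a median of 0.13. The 14 regulatory genes had 7 above 0 with a median of 0.01.

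Psmd7 had been singled out with its values known, so its levels are a description. It read 1.27, 0.51 and -1.09 in WT 0GH and -5.12, -3.74 and -2.30 in WT 1GH. It read -1.29, 1.60 and -0.69 in NLS 0GH and 1.28, 0.27 and -0.22 in NLS 1GH. The 3 WT 1GH arrays lay below the 9 others, which overlapped. The lid as a whole had a difference near 0 between GH numbers in WT, with 3 of 7 genes above 0 and a median of -0.02. Without Psmd7 the regulatory particle had 7 of 13 above 0, with a median of 0.04.

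Psmc2, of the ATPase ring, had a different pattern. It read 4.69, 3.54 and 2.88 in WT 0GH and 0.04, -5.21 and -0.06 in WT 1GH. It read 0.17, -1.29 and 1.13 in NLS 0GH and 4.26, 1.24 and 1.27 in NLS 1GH. WT 0GH and NLS 1GH were thus the high groups, and the array WT 1GH c stood far below the rest. Without that array the difference between GH numbers in WT was -3.71. The other ATPases Psmc3, Psmc5 and Psmc6, which sit in the same ring, lay between -0.91 and 1.76 on all 12 arrays. The remaining ATPases of the ring varied more on incomplete spots: Psmc1 lay between -2.70 and 2.09 on 11 arrays, and Psmc4 is described above. Psmc1 differed between GH numbers in NLS by -2.37 (SE 0.90), with an unadjusted p of 0.0266 and an adjusted p of 1.0 in limma with at least 2 values in each group.

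**Figure D4:**
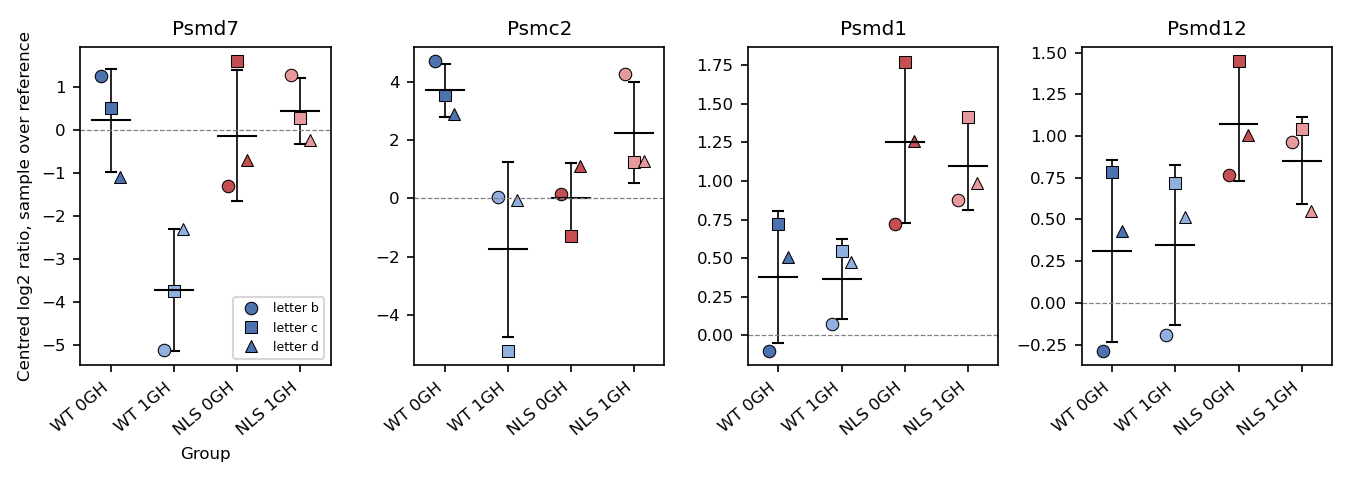
Centred log2 ratio (vertical) on each array by group for Psmd7, Psmc2, Psmd1 and Psmd12, with letters as symbols, the group mean as a bar and the SD over 3 arrays. Each panel has its own scale: Psmd7 is low in WT 1GH, at -5.12 to -2.30, Psmc2 is high in WT 0GH and NLS 1GH, and the 6 NLS values of Psmd1 are its highest.

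In NLS, more members lay below than above 0 between GH numbers. Of the 37, 12 lay above 0 with a median of -0.19, against 47.3% of features and a median of -0.04. None passed in limma after Benjamini-Hochberg adjustment, as for 0% of features, and 0 members had an unadjusted p under 0.05, against 2.92%. Psmc2 at 2.26 (SE 1.41), Psmg3 at 1.77 and Psmb7 at 1.49 were highest, and Psmd9 at -1.54, Psme3ip1 at -0.96 and Psme4 at -0.89 lowest. Psmc2 was higher without overlap, against 3.87% of features, and Psme4 and Psmd10 were lower, against 3.43%. The nearest arrays lay close, at 0.3015 in NLS 1GH b and 0.317 in NLS 0GH c for Psme4. For Psmd10 they read 0.4914 in NLS 1GH c and 0.5202 in NLS 0GH c. The alpha subunits had 0 of 4 above 0 with a median of -0.19, the beta subunits 3 of 4 with a median of 0.06, and the regulatory genes 5 of 14 with a median of -0.19. The family median was -0.41 without NLS 0GH b and -0.04 without NLS 0GH c. On arrays that were not centred it was 0.12, with 23 of 37 above 0, under a median of all features of 0.27, so the sign holds only relative to the other features.

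Whether the GH difference itself differed between receptor forms was tested as an interaction, on all 12 arrays. Of the 37, 13 lay above 0 with a median of -0.26, against 47.3% of features and a median of -0.06. The test passed 0 members and 0% of features in limma with Benjamini-Hochberg adjustment. Psmc2 at 7.70 (SE 1.99) and Psmd7 at 4.52 (SE 1.36) had an unadjusted p under 0.05, against 2.42% of features. Psmb7 followed at 1.63 (SE 2.57), and the lowest were Psme3ip1 at -2.02, Psmd6 at -1.54 and Psmb10 at -1.52. Without WT 0GH b the family median was 0.03. On arrays that were not centred it was 0.32, with 29 of 37 above 0, under a median of all features of 0.52. For Psmc2, Psmc3 and Psmd10 the GH difference had opposite signs in WT and NLS in every letter, as it did for 3.38% of features. NLS minus WT had opposite signs at the 2 GH numbers in every letter for Psmc2 and Psmd10, against 2.46% of features.

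Of 55 genes that act around the proteasome, 25 had a value on all arrays, and 14 of them lay above 0 in the averaged comparison, with a median of 0.10, against 47.7% of features and a median of -0.03. Of the 25, 0 passed in limma, as did 0% of features, and 5 had an unadjusted p under 0.05, against 5.27%. Ngly1, which deglycosylates Nfe2l1, stood highest at 1.70 (SE 1.31), but its NLS 1GH b array read 9.73 while the 11 others lay between 0.77 and 1.83. Without that array its difference was 0.25. Rad23b, which carries ubiquitinated proteins to the proteasome, followed at 0.90 (SE 0.27), and its NLS arrays, 0.36 to 1.12, lay above its WT arrays, -0.72 to 0.22, a separation that 0.567% of features had. The lowest were the ubiquitin ligase Ubr2 at -4.74 (SE 1.32) and the ubiquitin-conjugating enzyme Ube2r2 at -1.32 (SE 0.45), both lower in NLS in 6 of 6 pairs, as were 2.48% of features. The size for Ubr2 rests on extreme ratios, which are not exact levels. It read -8.79 in NLS 0GH c, -10.61 in NLS 0GH d and -9.28 in NLS 1GH b. With the outer 5% of ratios clipped, Ubr2 differed by -0.93 (SE 0.62). Nfe2l1, chosen after its values were seen, differed by -0.45 (SE 0.34) and its relative Nfe2l2 by -0.60 (SE 0.24), each lower in NLS in 6 of 6 pairs. Of the 25, 5 were lower in 6 of 6 pairs, against 2.48% of features, and 4 were higher, against 3.49%. For Nfe2l1 the pair of letter b at 1GH nearly tied, at -0.6273 in NLS and -0.6103 in WT. Without NLS 1GH d, where it read -2.55, Nfe2l1 differed by -0.20.

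Of 14 genes of antigen presentation, 9 were tested, all with a mean ratio above 0 and a median of 1.26. In the averaged comparison 3 of 9 lay above 0, with a median of -0.17, against 47.7% of features, and 0 of 9 passed in limma, as did 0% of features. B2m, the light chain of MHC class I, differed by -0.23 (SE 0.35), Tap1, a peptide transporter, by -0.17 (SE 0.61) and H2-D1, an MHC class I heavy chain, by -0.25 (SE 0.27), which was lower in NLS in 6 of 6 pairs, as were 2.48% of features. Tap1 turned to 0.32 without WT 0GH b, and B2m was -0.04 without NLS 0GH b. These 3 genes are all from the lower side. The 9 differences ran from -0.62 to 1.65, and the highest was that of Irf1, which read 6.27, -1.34 and 2.93 in NLS 0GH.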

How the data were processed

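Values of 12 spotted 2-colour arrays were used as the authors deposited them, and taken as log2 ratios. The unit is not stated: base 2 is an assumption, and if the base is another, all sizes change by one factor. The values run from -14.58 to 18.18, beyond the 8.36 that a 16-bit scan gives over the floor below as log2, so extreme ratios are not exact levels. Per the series' design text, the authors fitted a Lowess curve to 50% of the data at each point and floored the control channel at 200. The scanner and the background correction were not given in the sources used here. Blank (573), YIR (94) and Gapdh (235) control spots were left out. Signs were turned, because 38 of 41 embryo-tissue genes lay above the array median as deposited. Symbols are those of the array annotation, checked by Entrez identifier (16014 spots matched).

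Spots with a value on all 12 arrays were kept, spots of a symbol averaged, and each array centred on the median of the 10762 features. All 6 comparisons were fitted with limma 3.58.1 in R 4.3.3 to the 4 group means of all arrays. Tests were two-sided, p-values were adjusted by Benjamini-Hochberg over all features, with 0.05 as the threshold, and the comparisons share arrays. The fit was tested on simulated data. Members and lists were chosen with earlier results of these data known. Named are Psmd7, the inducible subunits with their counterparts, Psme1, and the 3 highest and 3 lowest members of each comparison. Of the partner genes, the 2 highest and the 2 lowest of the averaged comparison are named, and of antigen presentation at most 4.

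Samples of a letter share a red dye incorporation in the labels (b 19.3, c 19.8 and d 17.9 bp per dye). Their deviations from group means correlated at 0.04 to 0.26 within a letter, over 0.1 in 15 of 18 pairs, and at -0.19 to 0.07 between letters. The main fit has no term for the letter, although these values show a link within letters. The letter was used as a block in an alternative only. The other alternatives were arrays without centring (with differences given relative to the median of all features), quantile normalization, features with 2 or more values in each group, separate spots, a robust prior, clipped ratios, and each array or letter left out.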

Additional observations from a re-analysis of the deposited data

Results flagged for a closer look

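For 3 proteasome genes every letter moved one way between GH numbers in one receptor form and the other way in the other form. Of all features, 3.38% did so, and 2.46% did so for NLS minus WT at the 2 GH numbers. Psmc2 differed between GH numbers by -4.64, -8.75 and -2.94 in WT and by 4.09, 2.54 and 0.14 in NLS, for the letters b, c and d. It also met the pattern for NLS minus WT, with -4.52, -4.84 and -1.76 at 0GH and 4.21, 6.45 and 1.33 at 1GH. The interaction was 7.70 (SE 1.99), with an adjusted p of 1.0 in limma.

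Psmd10, an assembly chaperone of the base, differed by 1.10, 0.50 and 1.14 in WT and by -0.42, -0.03 and -0.74 in NLS. Between receptor forms it differed by 1.50, 0.00 and 0.33 at 0GH and by -0.02, -0.52 and -1.55 at 1GH. Its interaction was -1.31 (SE 0.68), with an adjusted p of 1.0 in limma. Psmc3, an ATPase of the base, differed by 0.27, 0.01 and 0.22 in WT and by -0.12, -0.16 and -0.32 in NLS, with an interaction of -0.36 (SE 0.59) and an adjusted p of 1.0. Several of these steps are smaller than the SD within groups.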

How the results depend on the processing

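The results were recomputed under 8 other ways of processing and 15 times with an array or a letter left out. In each of them 0 features passed in each of the 6 comparisons. Since each group holds each letter once, the replicate block leaves every difference as it is, such as the family median of 0.39 at 0GH, and alters the errors alone. No call changed, and with it the smallest adjusted p of a member was 0.459, for Psmd1, in a range over alternatives from 0.459 to 1.0. The block raised the features with an unadjusted p under 0.05 from 496 to 750 at 0GH and from 567 to 854 on average, and the members from 1 to 4, and from 4 to 5.

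The family median of NLS minus WT lay between 0.39 and 0.50 at 0GH under the 8 other ways of processing and between 0.22 and 0.55 with arrays left out. At 1GH it lay between 0.19 and 0.29 and between -0.07 and 0.43, and on average between 0.30 and 0.36 and between 0.19 and 0.43. Here the fits without centring are relative to their median of all features, which was -0.18 at 0GH, 0.35 at 1GH and 0.08 on average. As fitted, their family medians were 0.21, 0.61 and 0.41. Between GH numbers it ranged from -0.10 to 0.24 in WT and from -0.41 to -0.04 in NLS with arrays left out. The interaction ranged from -0.52 to 0.03. Of 1541 values of named members under alternatives, 42 moved by more than the SD of the difference over the letters, 38 of them with an array left out. Many of these values could not move. The block and the robust prior leave every difference as it is, as does leaving out an array of a group that a comparison does not use. The count is therefore no measure of how stable the values are. With 3 arrays per group, 13 of 50 genes incomplete and signals not given in the files used here, background cannot be weighed per spot.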
